A study of Sus scrofa with 56 samples.

Results

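The glucocorticoid receptor gene NR3C1 and genes that the receptor is known to act on were followed in peripheral blood mononuclear cells of sows. The genes were taken from a list of 8 symbols, NR3C1, FKBP5, TSC22D3, DDIT4, SGK1, DUSP1, KLF9 and ZBTB16, each looked up by its pig Ensembl gene ID among the 24358 IDs of the data. An ID was matched for 7 of the 8, and TSC22D3 was not analysed here. Blood was taken from 28 Sus scrofa sows on day 98 of gestation (G98) and from 26 of them on day 11 of lactation (L11). There were 28 RNA-seq libraries at each stage. At both stages 14 libraries came from sows in enriched and 14 from sows in conventional housing. High parity sows (HP, in their 4th gestation or a later one) gave 14 libraries at L11 and 13 at G98, and low parity sows (LP, in the 2nd or 3rd) gave 14 and 15. Dominant, intermediate and subordinate sows gave 11, 9 and 8 libraries at L11 and 9, 11 and 8 at G98. The experiment had 2 replicates, R2 and R1, with 14 libraries each at each stage, and the labels do not say how they differed. Both stages were available from the same sow and replicate in 26 pairs, 12 in R2 and 14 in R1. At L11, 2 sows have a library in each replicate, and the main tests within L11 took these as separate libraries. The labels tie no agent or allele to any group, and the ages of the sows were not used here.

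Cortisol, the main glucocorticoid of the pig, enters cells and binds the receptor encoded by NR3C1, which is held in the cytoplasm by heat shock proteins and immunophilins. The bound receptor moves to the nucleus, switches on genes with glucocorticoid response elements and restrains inflammatory genes driven by NF-κB and AP-1. In blood leukocytes of human and mouse the response is known for induction of FKBP5, which encodes an immunophilin that lowers the affinity of the receptor for hormone. TSC22D3 encodes the anti-inflammatory protein GILZ, DDIT4 (REDD1) an inhibitor of the growth kinase mTORC1, and SGK1 a serum- and glucocorticoid-regulated kinase. DUSP1 encodes a phosphatase that switches off MAP kinases, KLF9 a transcription factor that is also tied to the circadian clock, and ZBTB16 (PLZF) a transcription factor that in human and mouse marks innate-like T cells. Several of these genes also answer to other signals: DUSP1 to stress and mitogens as an immediate early gene, and DDIT4 to hypoxia and energy shortage.

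Levels of different genes were compared in TPM, the length-corrected values deposited by the authors. Over the 56 libraries DUSP1 averaged 305 ± 103 TPM, SGK1 208 ± 106, FKBP5 95.6 ± 30.0, DDIT4 78.7 ± 49.2, NR3C1 30.5 ± 7.29, KLF9 10.3 ± 7.02 and ZBTB16 2.94 ± 1.18 TPM (mean ± SD). The spread was wider than the gap between DUSP1 and SGK1 and between FKBP5 and DDIT4, so the order within those pairs was not fixed. DDIT4 in particular changed place: at G98 it averaged 108 ± 19.3 TPM in R2, close to FKBP5 at 98.2 ± 24.1 TPM, and 23.4 ± 11.3 TPM in R1, close to NR3C1 at 26.8 ± 6.22 TPM. The genes lie apart in the Sscrofa11.1 genome. Their RefSeq gene spans, which hold exons, introns and untranslated regions together, are chr2:144822937-144956451 for NR3C1 (ENSSSCG00000014401), chr7:31441764-31550704 for FKBP5, chr14:75117708-75119907 for DDIT4, chr1:29625786-29753619 for SGK1, chr16:51457924-51461095 for DUSP1, chr1:223723613-223747661 for KLF9 and chr9:41639536-41839254 for ZBTB16.

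From here on, the level of a gene in a library is given in CPM, its count over the library total after scaling by the trimmed mean of M-values (TMM). A change is a log2 ratio fitted by edgeR, SE is its standard error, and adjusted p comes from the quasi-likelihood test after Benjamini-Hochberg adjustment over all genes of the comparison, with a call under 0.05. Library totals ran from 18096881 to 25302994 estimated counts, and all 7 genes passed the filter on low counts, with at least 84 counts for KLF9 and 104 for ZBTB16 in any library. The replicates stood apart over the whole transcriptome: the first principal component of the 500 most variable genes held 22% of the variance, of which R2 against R1 took 58.7% and stage 27.6%. Pan-leukocyte genes such as PTPRC and CORO1A were present in every library, with a sum over 8 genes of 9190 to 12040 CPM. The stages also carry separate series of library codes, so stage and that series cannot be told apart.

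Between late gestation and lactation, 4 of the 7 genes rose in the same sows and none fell. DDIT4 and SGK1 both rose by 0.82 on the log2 scale (SE 0.10, adjusted p = 1.4e-07 for DDIT4, and SE 0.11, adjusted p = 4.6e-07 for SGK1). KLF9 rose by 0.50 (SE 0.06, adjusted p = 1.4e-07) and DUSP1 by 0.40 (SE 0.11, adjusted p = 0.0034). NR3C1 itself, FKBP5 and ZBTB16 did not pass the test. The stage change was widespread, with 56.6% of all 12349 genes called and 28.4% called higher at L11, so 4 of 7 called is near the background and is not by itself a result about these genes. Their sizes were larger than typical, since the median size of a called change over all genes was 0.31. In bulk RNA, fewer cells of a type and less RNA per cell cannot be told apart.

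**Figure D1:**
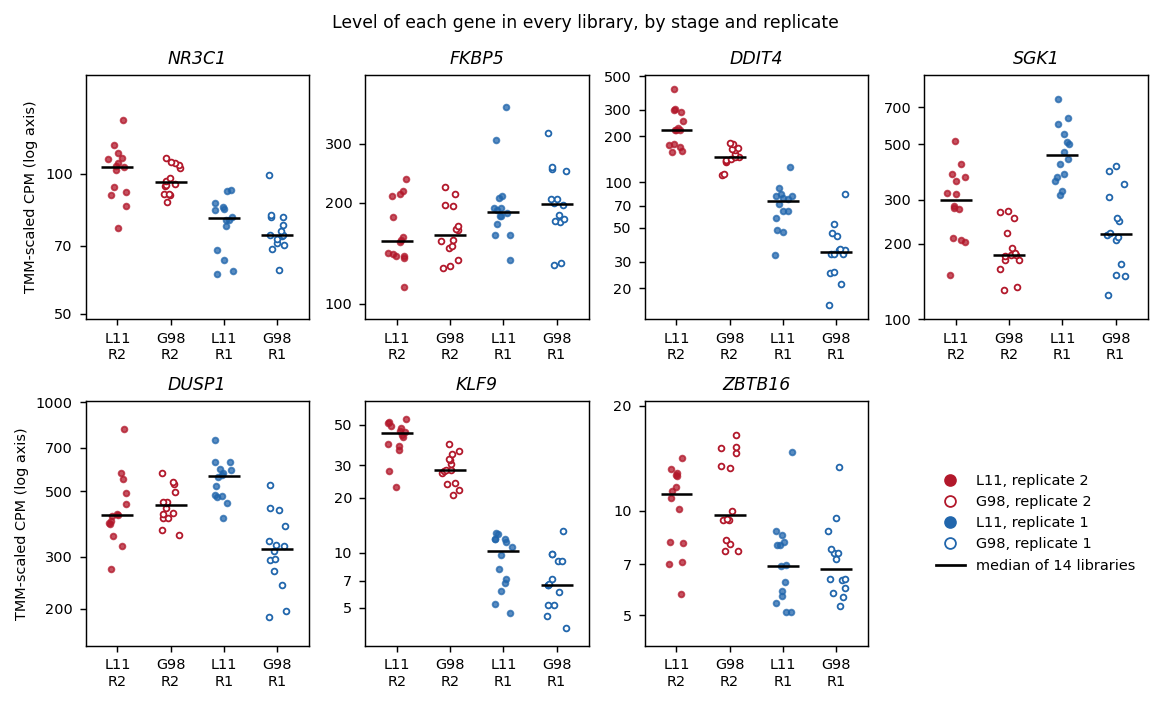
Level of the 7 genes in each of the 56 libraries, in TMM-scaled CPM on log axes, with L11 and G98 of R2 on the left and of R1 on the right of each panel. Bars are medians of 14 libraries. At each stage the DDIT4 and KLF9 libraries of R2 lie above all those of R1.

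DDIT4, the mTORC1 inhibitor, had 157, 221 and 409 CPM as its lowest, median and highest L11 level in R2, against 112, 147 and 182 CPM at G98. In R1 it had 33.0, 74.8 and 126 CPM at L11, against 15.6, 34.7 and 83.8 CPM at G98. The stages overlapped in both replicates, but within sows DDIT4 was higher at L11 in 24 of 26 pairs, including all 12 of R2. The kinase gene SGK1 had 151, 300.1 and 514 CPM at L11 in R2, against 131, 181 and 269 CPM at G98. In R1 it had 313, 451 and 758 CPM at L11, against 125, 219 and 409 CPM at G98. SGK1 was higher at L11 in 23 of 26 pairs, including all 14 of R1.

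KLF9 was the lowest of the 4 that rose. Its levels in R2 were 22.8, 45.0 and 54.2 CPM at L11, against 20.6, 28.4 and 39.1 CPM at G98, and in R1 they were 4.68, 10.2 and 12.8 CPM at L11, against 3.87, 6.68 and 13.1 CPM at G98. The rise was small beside the gap between the replicates, yet KLF9 was higher at L11 in 24 of 26 pairs. When the sow term was dropped and all 56 libraries were used with no term for replicate, KLF9 had nearly the same estimate (0.51) but an adjusted p of 0.126. DUSP1, the MAP kinase phosphatase, had the highest mean TPM of the 7, though its order with SGK1 was not fixed. It had 272, 414 and 808 CPM at L11 in R2, against 356, 448 and 575 CPM at G98, and 404, 562 and 746 CPM at L11 in R1, against 187, 319 and 523 CPM at G98. It was higher at L11 in 19 of 26 pairs. All 4 genes were higher at L11 in 15 of the 26 pairs, 3 of them in 8 pairs and 2 of them in 3 pairs.

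The receptor gene kept a narrow range. NR3C1 had 60.9, 88.3 and 130.5 CPM as its lowest, median and highest level over the 28 L11 libraries, against 62.1, 88.5 and 108 CPM over the 28 G98 libraries. Its stage change was 0.06 (SE 0.05, adjusted p = 0.31), with 14 of 26 pairs higher at L11. FKBP5, the classical target, had 112, 182 and 387 CPM at L11, against 128, 178 and 323 CPM at G98. Its change was −0.02 (SE 0.09, adjusted p = 0.88), with 13 of 26 pairs higher at L11, and within sows of R1 it ranged between −0.79 and 1.23. FKBP5 thus moved widely in single sows, in no common direction. ZBTB16 had 5.11, 8.10 and 14.8 CPM at L11, against 5.32, 8.13 and 16.5 CPM at G98, with a change of −0.06 (SE 0.07, adjusted p = 0.49) and 10 of 26 pairs higher at L11.

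The stage change was then taken within each replicate. In R2, where 48.3% of all genes were called (24.9% higher at L11), DDIT4 rose by 0.65 (SE 0.11, adjusted p = 2.2e-04), KLF9 by 0.65 (SE 0.08, adjusted p = 2.9e-05) and SGK1 by 0.61 (SE 0.15, adjusted p = 0.0040). In R1, where 43.0% were called (21.1% higher at L11), SGK1 rose by 0.99 (SE 0.13, adjusted p = 1.4e-05), DDIT4 by 0.98 (SE 0.15, adjusted p = 6.2e-05), DUSP1 by 0.79 (SE 0.08, adjusted p = 1.6e-06) and KLF9 by 0.35 (SE 0.08, adjusted p = 0.0018). DUSP1 set the replicates apart: it was higher at L11 in 5 of 12 sows of R2, with a change of −0.06 (SE 0.13, adjusted p = 0.71), and in 14 of 14 sows of R1.

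The difference between the replicates was tested directly, as the R2 change minus the R1 change. For DUSP1 it was −0.87 (SE 0.16, adjusted p = 2.7e-04), in a test that called 20.9% of all genes. No other gene of the 7 passed it: the difference was −0.34 (SE 0.20, adjusted p = 0.24) for DDIT4, −0.40 (SE 0.21, adjusted p = 0.19) for SGK1 and 0.28 (SE 0.11, adjusted p = 0.081) for KLF9, all in edgeR's quasi-likelihood test. Every one of the 14 R1 sows had a DUSP1 change of at least 0.27, whereas R2 sows ranged between −0.75 and 0.99. The sow at 0.99 gave the L11 library described next, and without it the difference was −0.97 (SE 0.14, adjusted p = 2.98e-05).

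**Figure D2:**
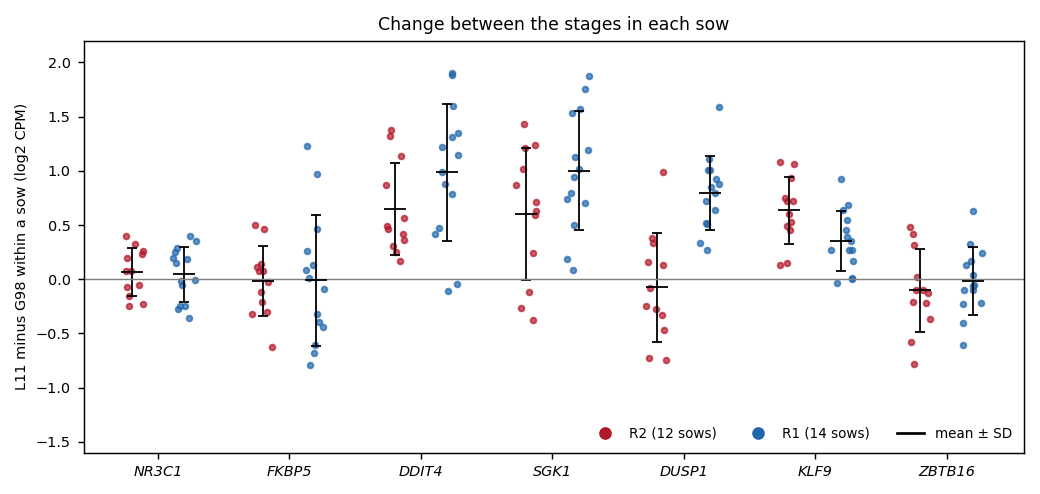
Change of each gene within a sow, L11 minus G98 in log2 CPM, for 12 sows of R2 and 14 of R1. Black marks are the mean ± SD. DDIT4, SGK1 and KLF9 lie mostly above 0 in both replicates, DUSP1 lies above 0 in all R1 sows and on both sides of 0 in R2, and NR3C1, FKBP5 and ZBTB16 are spread around 0.

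A single L11 library of R2, from a conventional HP dominant sow, held far more monocyte transcripts than the rest. Its sum over 13 monocyte genes was 15240 CPM, against 4452 to 7524 CPM in the other 13 L11 libraries of R2. It had the highest DUSP1 (808 CPM, next 576) and DDIT4 (409 CPM, next 305) of that group. Without this sow the stage changes were 0.80 for DDIT4, 0.80 for SGK1, 0.37 for DUSP1 (adjusted p = 0.0063) and 0.50 for KLF9, and the same 4 genes were called. Of 13 monocyte genes 10 rose with stage and none fell, with a median change of 0.59, where 56.6% of all genes were called. Without that sow 10 rose and 1 fell, with a median change of 0.51. The monocyte sum was 4452 to 15242 CPM at L11 and 2652 to 4826 CPM at G98 in R2, and 3929 to 6534 CPM at L11 and 2594 to 5302 CPM at G98 in R1. All 3 granulocyte genes tested rose as well, with a summed level of 198 to 1976 CPM over 7 genes at L11 and 109 to 285 CPM at G98 in R2, and of 228 to 478 CPM at L11 and 104 to 326 CPM at G98 in R1. That sum rests on few genes: over all libraries CSF3R averaged 208 CPM, S100A12 70.8 CPM and LTF 14.1 CPM. MMP8, ALPL, MPO and ELANE averaged 0.41, 0.16, 0.027 and 0.0040 CPM. S100A12 varied widely at L11 in R2, at 148 ± 330 CPM (SD). All 8 erythroid genes tested fell, with a median change of −2.61, and in R1 their sum reached 34992 CPM at L11 and 122516 CPM at G98. Of 12 T cell genes 1 rose and 6 fell, and of 10 B cell genes 1 rose and 1 fell. The cytotoxic and NK cell list had 6 of 10 higher and 1 lower, the gamma delta T cell list 3 of 6 lower, the platelet list 1 of 7 lower and the pan-leukocyte list 2 of 8 higher and 3 lower. The part of these cell types in the changes of the 7 genes was not tested.

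The scaling sets where 0 lies. In R2 the median gene changed by −0.01 between the stages in TMM-scaled CPM, by −0.16 in CPM without TMM and by −0.36 in the authors' TPM, and in R1 by 0.00125, 0.09 and 0.13. Relative to that median, DDIT4, KLF9 and SGK1 stood at like values on each scale: in R2 DDIT4 stood at 0.65, 0.65 and 0.68, KLF9 at 0.65, 0.64 and 0.68 and SGK1 at 0.61, 0.61 and 0.60, in the order TMM-scaled CPM, CPM without TMM and TPM. DUSP1 in R2 stood at −0.06, −0.07 and −0.26, below the median gene on all 3 scales, and in R1 at 0.80, 0.80 and 0.71. NR3C1 stood at 0.08, 0.08 and −0.02 in R2 and at 0.04, 0.04 and −0.09 in R1, so its sign depended on the scale, as did that of ZBTB16 in R1 (−0.02, −0.02 and 0.04).

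Other genes of the pathway were read from lists of the receptor's partners and of its known targets. Among the machinery of the receptor, 3 of 20 genes tested rose and 11 fell, with a median change of −0.13 against 0.00368 over all genes, of which 56.6% were called and 28.4% were higher at L11. The corepressor gene NCOR1 fell by 0.42 (SE 0.04, adjusted p = 4.8e-10), the coactivator CREBBP by 0.33 (SE 0.04) and the chromatin remodeller SMARCA4 by 0.23 (SE 0.03). NR3C2, the mineralocorticoid receptor that also binds cortisol, fell by 0.54 (SE 0.08, adjusted p = 6.4e-07). NR3C2 averaged 9.22 ± 1.83 CPM at L11 and 14.5 ± 1.94 CPM at G98 in R2, and 6.02 ± 1.68 CPM at L11 and 8.05 ± 1.53 CPM at G98 in R1 (SD, n = 14 each). Of 3 heat shock and immunophilin genes of this list, chosen after their values were seen, HSPA4 rose by 0.15 (SE 0.04). HSP90AB1 (−0.08, SE 0.04) and the immunophilin FKBP4 (−0.04, SE 0.04) did not pass. The mean of HSP90AB1 moved in opposite directions in the replicates. It was 1643 ± 250 CPM at L11 and 1583 ± 122 CPM at G98 in R2, and 1225 ± 61.8 CPM and 1362 ± 85.6 CPM in R1 (SD). Within R2, where 48.3% of all genes were called, 1 machinery gene rose and 8 fell, and within R1, where 43.0% were called, 2 rose and 11 fell.

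Of 27 further genes known to be induced by glucocorticoids, 13 rose and 3 fell, with a median change of 0.31. These 16 of 27 called are near the 56.6% called over all genes, so the count called is not by itself a result about the list. By direction, 28.4% of all genes were called higher at L11. RGS2, a brake on G protein signalling, rose by 1.04 (SE 0.08, adjusted p = 2.3e-11), the NF-κB inhibitor NFKBIA by 1.10 (SE 0.13, adjusted p = 4.6e-08), ALOX5AP of leukotriene synthesis by 0.92 (SE 0.11) and the NF-κB brake TNFAIP3 by 0.70 (SE 0.09). The clock gene PER1, a direct target of the receptor in mouse and human, rose by 0.71 (SE 0.10, adjusted p = 9.8e-07). The 3 that fell were FOXO1, FOXO3 and IL7R, chosen for naming after their values were seen. In R2, 15 rose and 4 fell, where 48.3% of all genes were called and 24.9% were higher at L11. In R1, 14 rose and 4 fell, where 43.0% were called and 21.1% were higher at L11. The genes that glucocorticoids are known to restrain did not fall: 8 of 9 tested rose and none fell, with a median change of 0.84. Over all genes 56.6% were called and 28.4% were higher at L11. Of 14 restrained genes with a matched ID, only those 9 passed the filter on low counts. In R2, 5 of 9 rose, where 48.3% of all genes were called. In R1, 6 of 8 rose, where 43.0% were called, and none fell in either replicate. The gelatinase MMP9 rose by 1.90 (SE 0.24, adjusted p = 2.0e-07), the neutrophil chemoattractant CXCL8 by 1.65 (SE 0.23, adjusted p = 5.7e-07), IFNG by 0.88 (SE 0.19) and IL1A by 1.90 (SE 0.47). The IL1A rise rests on R2, where it averaged 17.3 ± 22.8 CPM at L11 and 3.78 ± 4.36 CPM at G98 (SD). In R1 IL1A was near the floor, at 0.13 ± 0.14 CPM at L11 and 0.15 ± 0.12 CPM at G98.

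Immediate early genes, which like DUSP1 answer within minutes to cell stimulation, gave 11 of 19 higher and 2 lower at L11, with a median change of 0.39. Over all genes 56.6% were called and 28.4% were higher at L11. In R1, 10 rose and 2 fell, where 43.0% of all genes were called. In R2, 7 rose and 2 fell, and these 9 of 19 called are near the 48.3% called over all genes. FOSL2 rose by 0.81 (SE 0.12, adjusted p = 8.6e-07), ATF3 by 0.91 (SE 0.14, adjusted p = 2.1e-06), NR4A2 by 0.67 (SE 0.12) and IER3 by 1.37 (SE 0.27). As with DUSP1, the change of ATF3 was smaller in R2, at 0.41 (SE 0.16) against 1.35 (SE 0.13) in R1, and the difference of −0.96 passed the test (SE 0.21, adjusted p = 0.0017). FOSL2 went the other way, with 1.32 (SE 0.15) in R2, 0.39 (SE 0.06) in R1 and a difference of 0.91 (SE 0.16, adjusted p = 1.9e-04). Without the sow of the monocyte-rich library the counts were 13 up and 4 down for induced targets, 8 up and none down for restrained targets, 10 up and 2 down for immediate early genes, and 3 up and 12 down for the machinery.

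The largest differences of any of the 7 genes lay between the replicates. The mean of KLF9 in R2 was 4.56 times that in R1 at L11 and 3.97 times at G98, and that of DDIT4 was 3.26 and 3.99 times. Their ranges did not overlap at either stage, which held for 3.83% of all genes at L11 and 2.37% at G98. KLF9 differed by 2.21 at L11 (SE 0.15, adjusted p = 3.7e-12), where the lowest R2 library had 22.8 CPM and the highest R1 library 12.8 CPM. At G98 it differed by 1.99 (SE 0.14, adjusted p = 1.3e-11), with 20.6 CPM in the lowest R2 and 13.1 CPM in the highest R1 library. DDIT4 differed by 1.72 at L11 (SE 0.16, adjusted p = 1.7e-09) and by 1.99 at G98 (SE 0.17, adjusted p = 3.6e-10). At G98 the lowest R2 library had 112 CPM of DDIT4 and the highest R1 library 83.8 CPM. Both estimates were larger between replicates than between stages.

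At L11, 43.3% of all genes differed between R2 and R1, 22.0% upward and 21.3% downward in R2, and 6 of the 7 genes were called, 4 higher and 2 lower. At G98 the shares were 40.7%, 19.3% and 21.3%, and 5 of the 7 were called, all higher in R2. NR3C1 was higher in R2 by 0.37 at both stages (SE 0.08, adjusted p = 1.9e-04 at L11, and SE 0.05, adjusted p = 1.9e-06 at G98). All 14 R2 libraries of G98 lay above the R1 median of 73.8 CPM, as did 13 of 14 R2 libraries of L11 above 80.2 CPM. ZBTB16 was higher in R2 by 0.50 at L11 (SE 0.11, adjusted p = 7.4e-04) and by 0.56 at G98 (SE 0.12, adjusted p = 3.6e-04). SGK1 was lower in R2 by 0.65 at L11 (−0.65, SE 0.15, adjusted p = 7.2e-04), and its difference at G98 did not pass (−0.32, SE 0.16, adjusted p = 0.12). DUSP1 changed side with stage: it was lower in R2 at L11 (−0.32, SE 0.11, adjusted p = 0.024) and higher in R2 at G98 (0.50, SE 0.12, adjusted p = 0.0016). The L11 difference of DUSP1 fell short of the threshold, at −0.28 with an adjusted p of 0.0595, without the R2 libraries of the 2 sows sampled at L11 in both replicates.

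FKBP5 had lower estimates in R2, of −0.30 at L11 (SE 0.13, adjusted p = 0.066) and −0.27 at G98 (SE 0.11, adjusted p = 0.055). Neither passed the threshold in the edgeR test. The median FKBP5 level was 154 CPM in R2 and 188 CPM in R1 at L11, and 161 CPM in R2 and 199 CPM in R1 at G98. Over all genes 22.0% were called higher and 21.3% lower in R2 at L11, and 19.3% higher and 21.3% lower at G98. Of 27 further induced targets, 18 were higher and 2 lower in R2 at L11, and 15 higher and 3 lower at G98. PER1 was higher in R2 by 2.25 at L11 (SE 0.14) and by 1.65 at G98 (SE 0.17), CXCR4 by 2.31 (SE 0.11) and 2.41 (SE 0.20), and TNFAIP3 by 2.61 (SE 0.17) and 2.80 (SE 0.25). Of 19 immediate early genes, 15 were higher and 1 lower in R2 at each stage. EGR1, a growth-factor-induced transcription factor, was the lower one, at −0.79 (SE 0.22) at L11 and −1.53 (SE 0.23) at G98. CXCR4 and EGR1 were chosen for naming after their values were seen. Of 13 monocyte genes 6 were higher and none lower in R2 at L11, and none was higher and 2 were lower at G98. All 8 erythroid genes tested were lower in R2 at G98, and none of 6 was called at L11. The part of these cell types in the gap between the replicates was not tested.

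Parity gave no called gene among the 7, in a comparison that called 0.179% of all genes at L11 and 1.47% at G98. ZBTB16 came nearest, with lower levels in HP sows at both stages. At L11 it had 5.11, 6.98 and 13.1 CPM as lowest, median and highest in 14 HP libraries, against 5.69, 10.8 and 14.8 CPM in 14 LP libraries. At G98 it had 5.32, 7.63 and 13.4 CPM in 13 HP libraries, against 6.35, 9.46 and 16.5 CPM in 15 LP libraries. The groups overlapped, and 2 HP libraries at each stage lay above the LP median. The difference was −0.54 at L11 (SE 0.15, adjusted p = 0.19) and −0.55 at G98 (SE 0.16, adjusted p = 0.074). The HP median was the lower one in each replicate, at 8.09 CPM in HP and 12.6 CPM in LP sows at L11 in R2, 5.88 and 7.98 CPM in R1, 8.69 and 13.9 CPM at G98 in R2, and 5.99 and 7.55 CPM in R1.

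**Figure D3:**
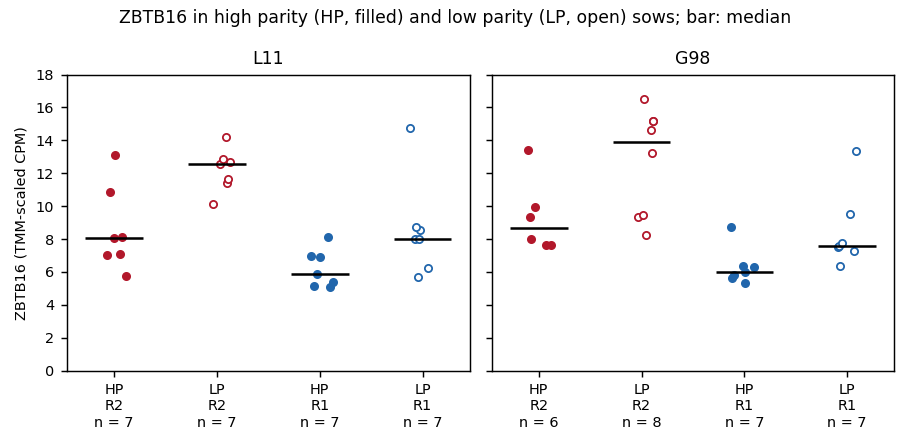
ZBTB16 level in TMM-scaled CPM in each library, HP sows filled and LP sows open, split by replicate, with L11 on the left and G98 on the right. Bars are medians of 6 to 8 libraries, and the HP median lies below the LP median in each of the 4 pairs.

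With the replicate number as a block, ZBTB16 passed at both stages, at −0.54 at L11 (SE 0.12, adjusted p = 0.036) and −0.49 at G98 (SE 0.12, adjusted p = 0.027). The blocked comparison called 0.301% of all genes at L11 and 2.91% at G98. Of 28 fits with 1 library left out in turn, 15 kept the call at L11 (adjusted p between 0.016 and 0.088) and 27 at G98 (between 0.0092 and 0.051, the lost call being without a conventional HP subordinate library of R2). Without the 2 repeat libraries it was −0.56 with an adjusted p of 0.063 at L11. Parity and rank are entangled, since 10 of 14 HP libraries at L11 and 8 of 13 at G98 came from dominant sows against 1 LP library each. With housing, parity and rank all in the fit beside the block, ZBTB16 was at −0.61 (SE 0.16, adjusted p = 0.63) at L11 and −0.40 (SE 0.15, adjusted p = 0.35) at G98. Markers of gamma delta T cells, innate-like lymphocytes that are common in pig blood, were read from the main parity fit only. That fit has housing but neither rank nor the block. In it SOX13 differed by −1.20 (SE 0.21, adjusted p = 0.0072) at L11 and −1.21 (SE 0.22, adjusted p = 0.0065) at G98. BLK differed by −0.85 (SE 0.14) and −0.82 (SE 0.15). The same fit called 0.179% of all genes at L11 and 1.47% at G98. In it 2 of 6 such genes were lower at L11 and 3 of 6 at G98, and none was higher. Their part in the ZBTB16 values was not tested.

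The other 6 genes gave parity differences between −0.06 and 0.18 at L11 and between −0.31 and 0.26 at G98. The widest of these was KLF9 at G98, at −0.31 (SE 0.39, adjusted p = 0.74), an estimate whose error carries the gap between the replicates. With the block it was −0.23 (SE 0.14, adjusted p = 0.36). FKBP5 was at 0.26 at G98 (SE 0.12, adjusted p = 0.29), with 4 of 13 HP libraries above the highest LP library, and at 0.06 at L11 (SE 0.15, adjusted p = 0.96). At an unadjusted p under 0.05, ZBTB16 passed at L11 and ZBTB16 and FKBP5 at G98, and DESeq2 called none of the 7 at L11 and 1, ZBTB16, at G98.

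Housing gave no called gene among the 7, with 0.0% of all genes called at L11 and 0.00815%, or 1 gene, at G98. None of the 7 reached an unadjusted p under 0.05 at either stage, and DESeq2 called none of them (over all genes it called 0 at L11, where 735 had an unadjusted edgeR p under 0.05, and 3 at G98, where 643 had). SGK1 had 276, 398 and 758 CPM in 14 enriched libraries at L11, against 151, 363 and 637 CPM in 14 conventional ones, a difference of 0.27 (SE 0.19, adjusted p = 0.87). At G98 SGK1 was at −0.10 (SE 0.17, adjusted p = 0.998). FKBP5 differed by 0.07 (SE 0.15) at L11 and −0.14 (SE 0.12) at G98 and NR3C1 by −0.07 (SE 0.10) and −0.04 (SE 0.09). ZBTB16 was at 0.29 (SE 0.15, adjusted p = 0.83) and 0.28 (SE 0.16, adjusted p = 0.996).

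Dominance rank, the comparison of dominant with subordinate sows, called none of the 7 and 0.0% of all genes at L11 and 0.0% at G98. Over all genes 1191 had an unadjusted p under 0.05 at L11 and 1814 at G98, and DESeq2 called 59 and 218, none of them among the 7. At an unadjusted p under 0.05 DUSP1 and ZBTB16 passed at L11 and FKBP5 and ZBTB16 at G98. FKBP5 at G98 had 130, 200.5 and 323 CPM as lowest, median and highest in 9 dominant libraries, 132, 180 and 255 CPM in 11 intermediate and 128, 161 and 213 CPM in 8 subordinate ones. The groups overlapped, and the difference was 0.48 (SE 0.15, adjusted p = 0.14). Rank was uneven over the replicates, and this fit had no replicate term. At G98, 3 dominant libraries were of R2 and 6 of R1, against 5 and 3 subordinate ones. Over 6 other settings, some with the replicate block, the FKBP5 difference at G98 lay between 0.33 and 0.48 and was not called. At L11 the FKBP5 difference was 0.03 (SE 0.18, adjusted p = 0.98), with medians of 187 CPM in dominant and 177 CPM in subordinate libraries. SGK1 at L11 had 283, 379 and 758 CPM in 11 dominant libraries, against 151, 244 and 547 CPM in 8 subordinate ones (0.46, SE 0.23, adjusted p = 0.53). NR3C1 was at −0.05 (SE 0.13) at L11 and 0.03 (SE 0.12) at G98. ZBTB16 was at −0.56 (SE 0.20, adjusted p = 0.34) at L11 and −0.60 (SE 0.21, adjusted p = 0.18) at G98, and with all 3 factors and the block in the fit at 0.02 (SE 0.19) and −0.11 (SE 0.20).

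**Figure D4:**
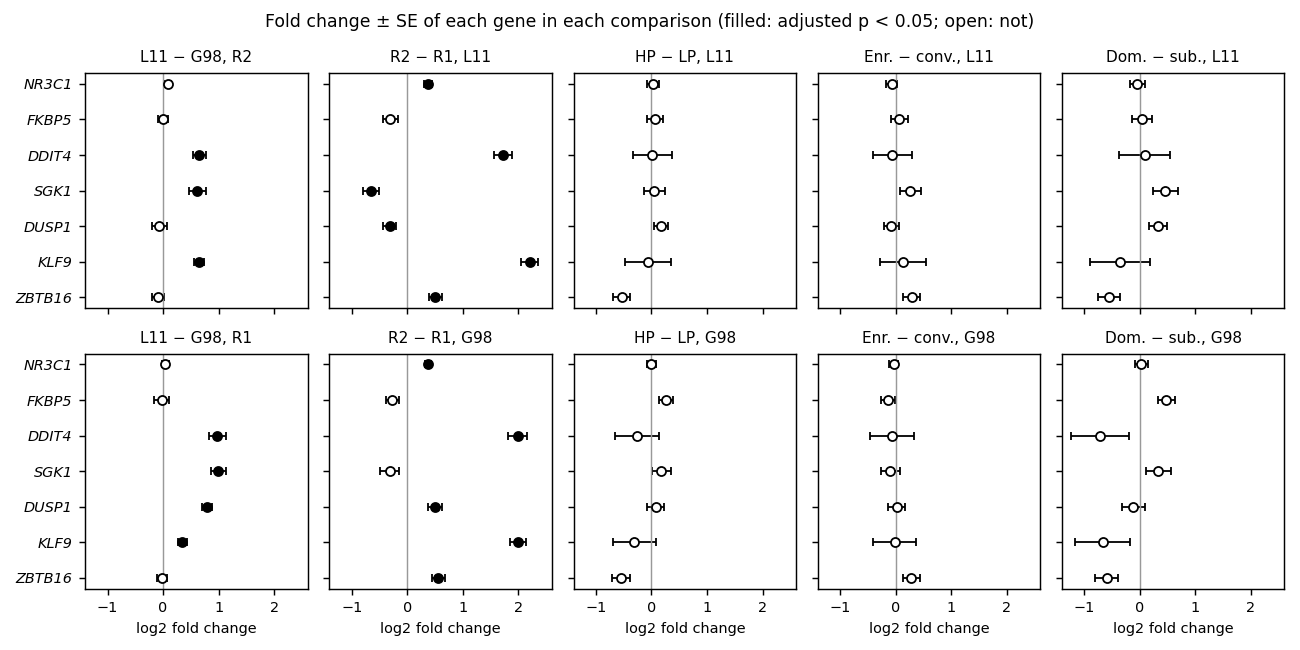
Log2 fold change ± SE of the 7 genes in 10 comparisons, with L11 in the upper and G98 in the lower row except in the first column, which gives the stage change in R2 above and in R1 below. Filled points have an adjusted p under 0.05. The differences between replicates of DDIT4 and KLF9 lie near 2, and no parity, housing or rank estimate is filled.

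Whether the stage change itself depended on parity, housing or rank was tested in 3 further fits. Each called 0.0% of all genes with edgeR, that is 0.0% for parity, 0.0% for housing and 0.0% for rank, with 262, 877 and 359 genes at an unadjusted p under 0.05, and DESeq2 called 0, 5 and 0. Neither tool called any of the 7 genes, and of these DDIT4 alone, for rank, had an unadjusted p under 0.05. The DDIT4 change averaged 1.15 ± 0.65 in 9 dominant sows (SD), 0.77 ± 0.53 in 9 intermediate sows and 0.53 ± 0.31 in 8 subordinate sows. The difference between dominant and subordinate sows was 0.62 (SE 0.24, adjusted p = 0.999). This fit did not let the stage change differ by replicate, and the DDIT4 change was 0.65 in R2 and 0.98 in R1. At G98, 3 dominant libraries were of R2 and 6 of R1, against 5 and 3 subordinate ones. Rank and replicate are thus mixed in this difference. The SGK1 change averaged 1.02 ± 0.48 in 13 enriched sows, all of them upward, and 0.61 ± 0.66 in 13 conventional sows, 10 of them upward, a difference of 0.41 (SE 0.21, adjusted p = 0.70). DDIT4 was higher at L11 in 10 of 12 HP and 14 of 14 LP sows, and KLF9 in 11 of 12 and 13 of 14.

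The 7 genes did not move as a single block among libraries of the same stage and replicate. After the mean of each stage and replicate was taken out, the highest correlations of log2 CPM over the 56 libraries were 0.60 between SGK1 and DUSP1, 0.49 between DDIT4 and KLF9 and 0.45 between DDIT4 and DUSP1. FKBP5 was at −0.17 with DDIT4 and −0.19 with KLF9, and NR3C1 was at −0.04 with FKBP5. These values are descriptions, since libraries of a sow share an animal and all libraries share differences in cell make-up. Out of 10709 genes whose log2 CPM averaged 1 or more, the nearest to DUSP1 were FOS (0.79), ATF3 (0.78) and NFIL3 (0.73), and the nearest to SGK1 were TENT5A (0.67), GADD45B (0.66) and TTC13 (0.61). DDIT4 lay nearest to RGS1 (0.75), SOCS1 (0.71) and CXCR4 (0.67), and KLF9 to GNA13, ARID5B and CXCR4 (0.60 each). NR3C1 lay nearest to UBR2 (0.76), NUFIP2 (0.76) and FNIP1 (0.75). FKBP5 had no close companion, with CCL14 (0.53), BRCC3 (0.53) and CCND3 (0.51) at the head, and ZBTB16 had TAF6L (0.62) and GALNT12 (0.56) among its nearest.

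**Figure D5:**
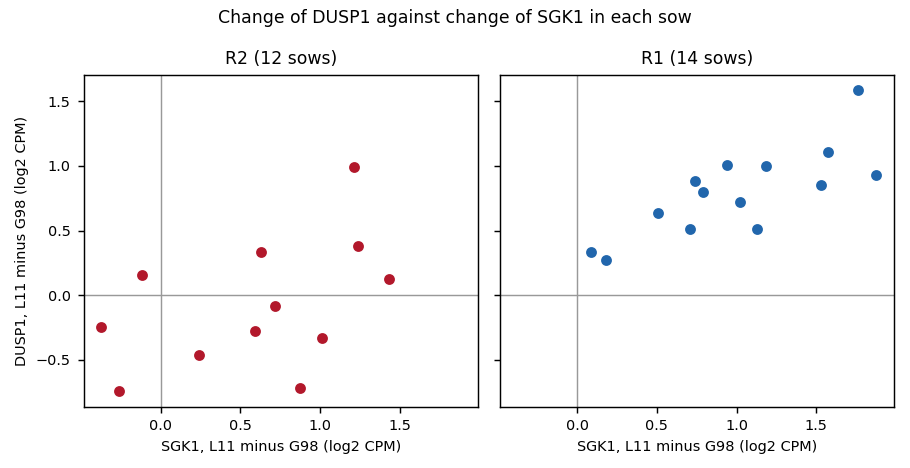
Change of DUSP1 against change of SGK1 in each sow, L11 minus G98 in log2 CPM, with 12 sows of R2 on the left and 14 of R1 on the right. In R1 all sows lie above 0 on both axes and larger changes of one go with larger changes of the other.

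The within-sow changes were also correlated between the 7 genes, in R2 and in R1 apart, which gave 42 relations. One passed the adjustment: the changes of DUSP1 and SGK1 in the 14 sows of R1 had r = 0.78 (permutation p = 9.1e-04, adjusted p = 0.038) and Spearman's rho = 0.77 (permutation p = 0.0022, adjusted p = 0.093). Without the 2 sows farthest from the median, r was 0.68. In the 12 sows of R2 the same relation had r = 0.47 (permutation p = 0.13, adjusted p = 0.53) and rho = 0.44, and r was 0.18 without the 2 farthest sows. Whether the relation differs between the replicates was not tested.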

How the data were processed

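Per the labels, a NucleoSpin kit gave the RNA of the peripheral blood mononuclear cells, and QIAseq Stranded mRNA libraries were sequenced. The submitters' processing notes name R 4.1.2, DESeq2 and the build Sscrofa11.1. The quantifier and its use of strand are, in the sources used here, not given. Per the file headers, the authors deposited for each gene and library an estimated count, not normalised, and a TPM value. Estimated counts were rounded (4.61% were not whole), and TPM was used to compare genes and to check scaling, with 0.1 added before taking log2. Symbols were matched to 14692 of 24358 IDs (60.3%), and coordinates are RefSeq gene spans matched by symbol.

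Tests used edgeR 4.0.16 in R 4.3.3 (filterByExpr, TMM, glmQLFit, glmQLFTest, 2-sided, threshold 0.05, Benjamini-Hochberg over all genes). The stage fit took 52 libraries and each sow-and-replicate pair as a block, since the labels give the sow. R2 minus R1 was fitted within a stage with housing and parity, parity and rank with housing, and housing with parity. Log2 CPM used a prior count of 2. Correlations of changes used 1e+05 permutations and adjustment over 42 relations. The edgeR steps were tested on simulated counts with the same dispersion for every gene and no sow effect. That simulation does not show how they perform under the sow and replicate differences of these data. Alternatives were DESeq2 1.42.0, its size factors, no filter, a stricter filter (1 CPM in 50% of libraries), the replicate block, all 3 factors with the block, no repeat libraries, other pairings for stage, and each library or pair left out. Leave-one-out of the replicate and blocked parity fits, the sow of the monocyte-rich library left out and the other scales were added after seeing the data. In all 75 pairs of libraries within a group the counts differed by more than sampling noise. Within a stage the replicate number names an experimental replicate and not a pair of animals.

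The 8 genes and the lists were chosen with earlier results of these data known. Named pathway genes are up to 4 called genes with the smallest p of each list in the stage comparison, PER1 and NR3C2, and the 3 genes most correlated with each member, of which 1 is not reported here. Genes outside this rule are said to be so or are given as examples of their list.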

Additional observations from a re-analysis of the deposited data

Results flagged for a closer look

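FKBP5 in subordinate sows at L11 had a library far from the others of its group. It had 307.5 CPM, in an enriched LP sow of R1, against 212.8 CPM in the next and 138.5 CPM in the lowest of the 8 libraries. Of 28 groups of a gene, stage and rank examined, this was the only one with such a gap, and chance gives about 1 in 20. The DUSP1 stage change differed between the replicates, by −0.87 on the log2 scale in R2 relative to R1 in the fit over all 26 pairs.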

How the results depend on the processing

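The number of members called depended on the processing for parity, stage and replicate. For parity, ZBTB16 was called in 3 settings, against no member in the main one: 1 at G98 with DESeq2, 1 at G98 with the replicate block and 1 at L11 with the replicate block. The block ended or made no other call of a member. For stage, 4 members were called in each setting, including each of the 26 pairs left out, except the unpaired fit with 3, where KLF9 was at 0.51 (adjusted p = 0.126). Between replicates, leaving out each library gave 5 to 7 members at G98 and 6 to 7 at L11, and DESeq2 gave 6 at G98. The added ones were FKBP5, in 6 such fits at G98 and 3 at L11, and SGK1 in 1 at G98 (−0.39, adjusted p = 0.046). FKBP5 was also called with DESeq2 at G98 (−0.26, adjusted p = 0.048) and without the repeat libraries at L11 (−0.36, adjusted p = 0.0385), where DUSP1 lost its call (−0.28, adjusted p = 0.0595). The cause was not tested. Of 554 values of single members under settings other than leaving out a library, 547 stayed on their side of the threshold, of which 22, none of them called, changed sign. Over all genes, parity at G98 called 180 genes, against 459 with DESeq2, 357 with the replicate block and 2 with all 3 factors. At L11 it called 22, against 60, 37 and 0, and 12 without the repeat libraries. Rank called none, against 218 at G98 and 59 at L11 with DESeq2 and 3 at L11 with the replicate block. Depth limits KLF9 and ZBTB16 most, whose lowest counts in any library were 84 and 104.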
